A study of Mus musculus with 16 samples.

Results

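The genes described here are 40 genes of glycolysis, glucose transport and glycogen metabolism, chosen by name as members of these pathways. No measured value was a criterion, but earlier results of these data were known when they were chosen. They were followed in a series in which cultured mouse myoblasts were treated with small molecules to obtain cells that resemble muscle stem cells. Bulk RNA-seq libraries from 16 cultures were deposited as estimated counts per transcript, and these were summed to 35613 genes. All 40 genes passed the filter on low counts, which kept 15533 genes.

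All cells carried the Pax7-nGFP reporter, in which nuclear GFP marks cells that express the muscle stem cell factor Pax7. In 15 libraries the parental lines came from male animals aged 16 weeks, and there were 5 groups of 3 biological replicates. Bulk myoblasts were unsorted cells collected at passage 3 from a medium with 20% FBS, 10% horse serum and 10 ng/ml basic FGF. Differentiated myoblasts spent 3 days in a medium with 2% horse serum and were collected at passage 4 to 5. Bulk MPCs were myoblasts expanded for 2 to 3 passages and then kept for 5 to 6 passages in MPC medium. That medium held forskolin (5 µM), RepSox (5 µM) and a compound labelled CHIR9901 (3 µM), with 10% FBS, 10% KnockOut Serum Replacement and 10 ng/ml basic FGF. The labels do not spell out MPC. GFP+ myoblasts (passage 5 to 6) and GFP+ MPCs were cells sorted for the reporter, 300000 to 500000 per library. A single further library held GFP+ MPCs from a 39-week-old female animal, whose GFP- myoblasts entered MPC medium at passage 8 and stayed for 2 passages. The base medium, serum, passage number and the 3 compounds changed together, and sorted and unsorted cells were extracted with different kits, so these cannot be told apart.

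Glycolysis turns glucose into pyruvate, which is reduced to lactate or enters the mitochondria, where pyruvate dehydrogenase acts on it. Several steps are carried out by alternative isozymes. Adult muscle fibres mainly use Pfkm, Pgam2, Eno3 and the M1 form of pyruvate kinase, together with the glycogen phosphorylase Pygm, whereas proliferating cells mostly use Pfkl or Pfkp, Pgam1, Eno1 and the M2 form.

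Library totals ranged from 19.3 to 29.1 M estimated counts. Levels below are CPM (counts scaled to a common library total) after TMM scaling unless another unit is given, and fold changes are log2 values ± SE from edgeR's quasi-likelihood test over all 15533 genes, with Benjamini-Hochberg adjusted p-values called under 0.05. Pax7, the gene the reporter follows, was at 604 to 1007 CPM in the 6 sorted libraries of the replicated groups, at 535 to 664 in bulk myoblasts, at 54.4 to 138 in bulk MPCs and at 24.7 to 63.3 in differentiated myoblasts. The summed level of 16 muscle differentiation genes was 76650 to 91550 CPM in differentiated myoblasts, 83980 to 111200 in bulk MPCs and 22190 to 32530 in bulk myoblasts, but 744 to 1147 in GFP+ myoblasts and 1485 to 2893 in GFP+ MPCs. The libraries labelled bulk myoblasts therefore held differentiation transcripts, with Myog at 978 to 1307 CPM. Bulk MPC replicate 2 stood apart in a summed level of 8 fibroblast genes of 59 CPM, against 1.58 and 2.07 in the other replicates, and in a summed proliferation level of 618 CPM against 247 and 298. No adipocyte or red cell marker passed the filter, and 1 of 6 macrophage markers did. Summed pericyte and smooth muscle markers were at 224 to 286 CPM in bulk MPCs, 229 to 289 in bulk myoblasts and 184 to 263 in differentiated myoblasts. They were at 121 to 160 in GFP+ MPCs and 85.6 to 89.2 in GFP+ myoblasts. Summed tenocyte markers were at 18.4 to 29.8 CPM in bulk MPCs, 45.8 to 65.6 in bulk myoblasts and 69.9 to 80 in differentiated myoblasts. In GFP+ MPCs they were at 4.95 to 9.54 and in GFP+ myoblasts at 21.4 to 28.1. In bulk libraries, fewer cells of a type and less RNA per cell cannot be told apart.

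The 40 genes together took 3.42 to 3.5% of all counts in bulk MPCs, 1.99 to 2.34% in differentiated myoblasts, 1.6 to 1.79% in bulk myoblasts, 1.46 to 1.7% in GFP+ myoblasts and 1.28 to 1.71% in GFP+ MPCs. Bulk MPCs were above every other library. The shares of the 2 sorted groups overlapped. The heat map of all libraries shows these levels gene by gene.

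**Figure D1:**
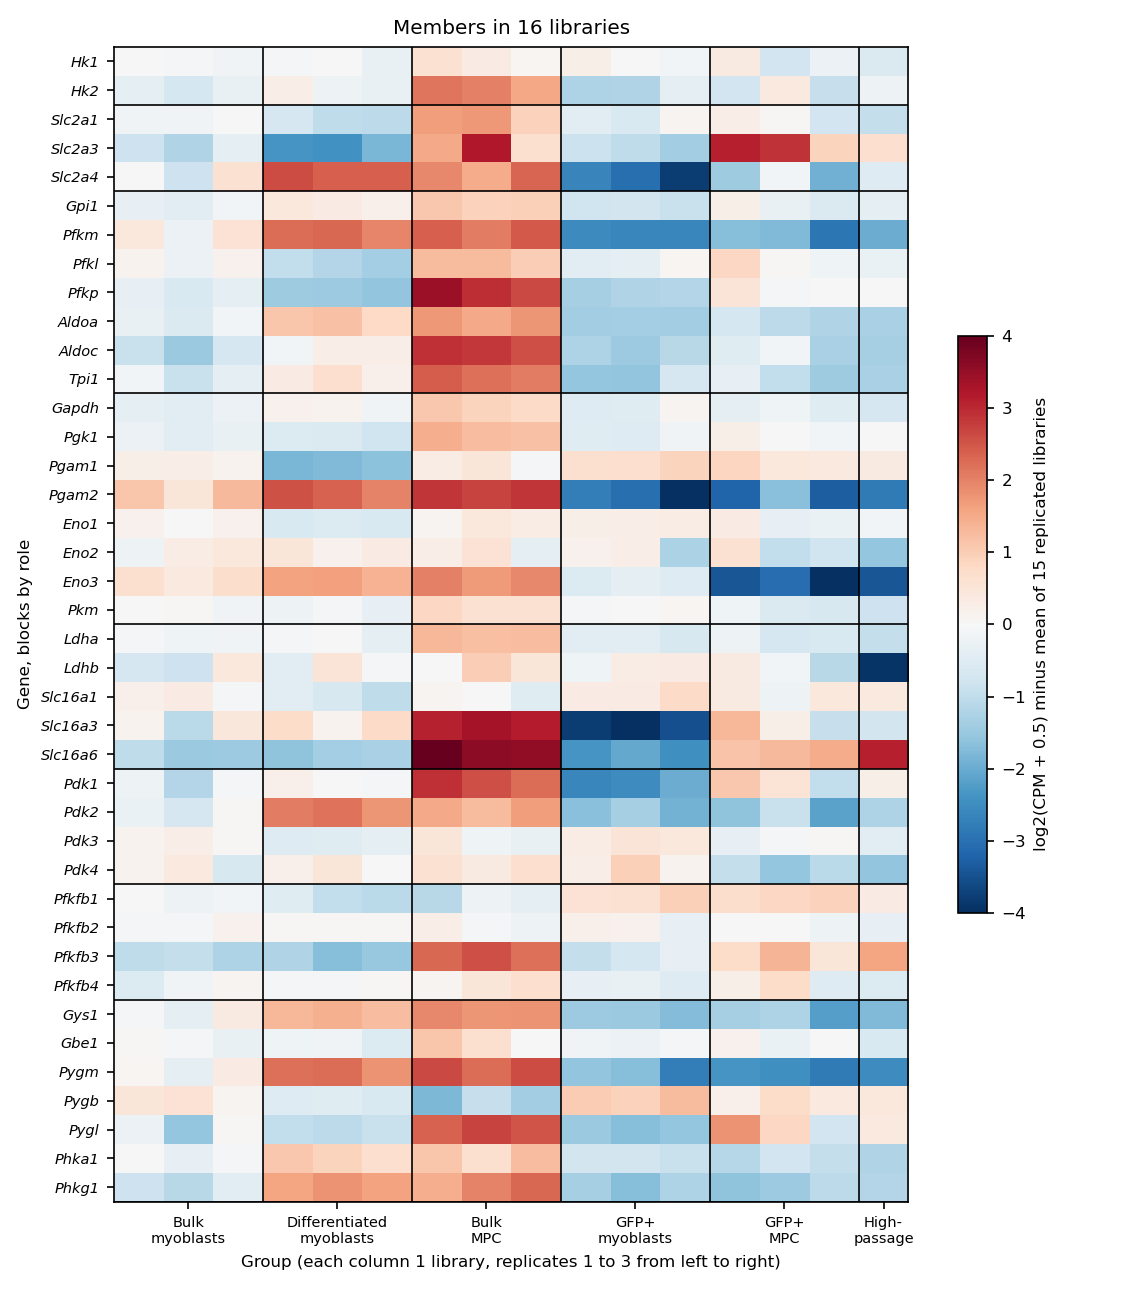
Level of each of the 40 genes (rows, in blocks by role) in each of the 16 libraries (columns), as log2(CPM + 0.5) minus the gene's mean over the 15 replicated libraries (colour scale, blue lower and red higher). Most rows are red in the 3 bulk MPC columns, while Pgam2, Pfkm and Pygm are red in differentiated myoblasts and bulk MPCs and blue in the sorted cells.

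On differentiation in low serum, 14 of the 40 genes were higher and 10 lower than in bulk myoblasts, where 25.6% of all genes tested were higher and 28.6% lower. The genes that rose most were the phosphorylase kinase subunit Phkg1 (2.96 ± 0.36), the glucose transporter Slc2a4 (2.51 ± 0.47), Pdk2 (2.36 ± 0.29), Pygm (2.11 ± 0.28) and Pfkm (1.95 ± 0.28). Slc2a3, Pgam1, Pfkl and Pfkp were among those that fell. The median change was 0.22, against -0.03 over all genes tested. Muscle differentiation genes moved with this comparison: 14 of 16 were higher and none was lower, while all 8 proliferation genes were lower. Their part in the result was not tested.

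In bulk MPCs, 28 of the 40 genes were higher than in bulk myoblasts and only Pygb was lower (2 genes lower without bulk MPC replicate 1), against 28.4% and 30.1% of all genes tested. The median change was 1.52, against -0.01 over all genes. All 7 genes of upper glycolysis, from Gpi1 to Tpi1, were higher. Among markers, 13 of 16 muscle differentiation genes were higher and 7 of 8 proliferation genes lower, and their part in the result was not tested. The rise covered both the muscle isozymes and genes that were lower or not called on differentiation, such as the lactate exporter Slc16a3, the monocarboxylate transporter family member Slc16a6, Pfkp, Pfkfb3, Pdk1 and Hk2. Against differentiated myoblasts, 23 genes were higher in bulk MPCs and 1, again Pygb, was lower (24.4% and 19.4% of all genes), with a median change of 0.62 against 0.07. The 9 genes Slc2a4, Pfkm, Pgam2, Eno3, Pdk2, Gys1, Pygm, Phka1 and Phkg1 were higher in both cultures than in bulk myoblasts and were not called between them, with differences of -0.53 to 0.48. When only these 2 groups were fitted, 3 of the 9 were called: Pgam2 (0.41, adjusted p = 0.0451), Pdk2 (-0.58, adjusted p = 0.0132) and Gys1 (0.43, adjusted p = 0.00466). These 9 were picked out after their values were seen, and both comparisons with myoblasts share the bulk myoblast libraries. Between bulk MPCs and differentiated myoblasts, 2 of the 16 muscle differentiation genes were higher and 1 lower, and all 8 proliferation genes were higher in bulk MPCs.

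Among sorted cells, GFP+ MPCs had 12 of the 40 genes higher and 5 lower than GFP+ myoblasts. Over all genes tested 26% were higher and 22.7% lower, so the number of genes called was near the background. The median change was 0.16 against 0.09 over all genes. The 12 were Slc16a3, Pygl, Slc2a3, Slc16a6, Pdk1, Slc2a4, Pfkfb3, Pfkp, Aldoc, Gpi1, Aldoa and Pgk1. The 5 that fell were Eno3, Pdk4, Pygb, Pdk3 and Pkm. Muscle differentiation genes were also higher in GFP+ MPCs (11 of 16, with 1 lower), as were 5 of 8 proliferation genes, and their part in the result was not tested.

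Most of the genes were lower in sorted than in unsorted MPCs. GFP+ MPCs had 30 genes lower and 2 (Pygb and Pfkfb1) higher than bulk MPCs, where 33.7% and 32.9% of all genes were called, with a median change of -1.67 against -0.01. GFP+ myoblasts had 17 genes lower and 3 (Pygb, Pgam1 and Pfkfb1) higher than bulk myoblasts, against 17.4% and 12.7% of all genes, with a median change of -0.41 against -0.02. Each of these 3 higher calls was lost when bulk myoblast replicate 3 or GFP+ myoblast replicate 3 was left out (no gene higher), and 1 was left without bulk myoblast replicate 1. That of Pfkfb1 was lost with any of the 6 libraries left out (adjusted p 0.0501 to 0.111). It was also lost with no filter, length-scaled counts or the replicate block. Without bulk MPC replicate 2, 4 genes rather than 2 were higher in GFP+ MPCs than in bulk MPCs. All 16 muscle differentiation genes were lower in both sorted groups than in their unsorted cultures, and 8 (MPCs) and 6 (myoblasts) of 8 proliferation genes were higher; their part was not tested. The interaction term of the same fit, the sorted-minus-unsorted difference in MPCs minus that in myoblasts, was lower for 21 genes and higher for 1, Pygb (2 without GFP+ MPC replicate 3), against 16.8% and 20.3% of all genes, with a median difference of -1.2 against 0.09. For the muscle differentiation genes themselves the interaction term was lower for 3 of 16 and higher for none. A test over all 5 groups called 35 of the 40 genes, against 89.5% of all genes tested. The 5 not called were Hk1, Eno2, Ldhb, Pfkfb2 and Pfkfb4, with adjusted p-values of 0.0521 to 0.83.

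Scaling by library size alone, without TMM, moved the median of all genes to -0.38 for bulk MPCs against bulk myoblasts, -0.25 for differentiated against bulk myoblasts, -0.08 for bulk MPCs against differentiated myoblasts, 0.46 for GFP+ MPCs against bulk MPCs and 0.46 for the interaction. For GFP+ myoblasts against bulk myoblasts it moved the median to 0.09. With it the calls over all genes became 2747 higher and 6985 lower for bulk MPCs against bulk myoblasts (4408 and 4679 with TMM), 2711 and 5805 for differentiation (3976 and 4441), 2824 and 3972 for bulk MPCs against differentiated myoblasts (3792 and 3019), 7470 and 3522 for GFP+ MPCs against bulk MPCs (5118 and 5232), 2981 and 2261 for GFP+ against bulk myoblasts (1966 and 2701) and 5490 and 1547 for the interaction (3149 and 2606). Of the 40 genes it called 27 higher and 4 lower for bulk MPCs against bulk myoblasts, 12 and 12 on differentiation, and 4 higher and 25 lower for GFP+ MPCs against bulk MPCs. The changes below are thus relative to a TMM centre.

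Pyruvate kinase makes pyruvate and ATP from phosphoenolpyruvate. The Pkm gene on chromosome 9 splices in 1 of 2 mutually exclusive coding exons of 167 bases, giving the M1 form of differentiated muscle or the M2 form of proliferating cells. The exons are shown because the share of M1 rests on reads that tell them apart. They differ at 64 positions (61.7% identity), written in capitals, in GRCm38 coordinates.
Pkm M1 exon (chr9:59675029-59675195, plus strand): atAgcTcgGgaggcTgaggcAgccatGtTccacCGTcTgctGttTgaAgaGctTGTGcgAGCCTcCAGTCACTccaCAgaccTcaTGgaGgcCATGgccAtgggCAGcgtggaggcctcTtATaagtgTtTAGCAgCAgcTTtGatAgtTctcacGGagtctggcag
Pkm M2 exon (chr9:59675568-59675734, plus strand): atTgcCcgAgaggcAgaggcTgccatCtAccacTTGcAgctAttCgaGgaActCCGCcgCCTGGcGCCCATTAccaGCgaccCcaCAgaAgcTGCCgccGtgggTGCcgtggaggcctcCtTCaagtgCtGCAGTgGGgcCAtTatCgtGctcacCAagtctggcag
The share of M1 in the summed TPM (a level corrected for transcript length) of M1 and M2 transcripts was 59.3%, 57.1% and 57.1% in differentiated myoblasts and 56%, 50.4% and 56.1% in bulk MPCs. In bulk myoblasts it was 39.9%, 36.9% and 39%, in GFP+ myoblasts 19.9%, 21.1% and 9.79%, and in GFP+ MPCs 12.9%, 11.5% and 11.8%. M1 therefore made up most in differentiated myoblasts, 3.66 percentage points less on average in bulk MPCs, whose libraries all lay below them, less again in bulk myoblasts, and least in the sorted cells, whose 2 groups overlapped because of GFP+ myoblast replicate 3. The group means spanned 45.8 percentage points, against a pooled SD of 3.27, and the 5 groups differed in an exact permutation test over all 1401400 assignments of the 15 libraries (adjusted p = 7.6e-05 over 11 shares). Any 2 groups of 3 cannot give an exact p below 0.1. The M2 transcript model also has 205 bases upstream and 186 bases downstream that the M1 model lacks, and reads there count for M2. Total Pkm was at 4995, 4283 and 4316 CPM in bulk MPCs, above the 2880, 2933 and 2566 of bulk myoblasts (0.74 ± 0.14, adjusted p = 0.000434). In GFP+ MPCs it was at 2506, 1882 and 1826 CPM, below the 2773, 2886 and 3014 of GFP+ myoblasts (-0.47 ± 0.14, adjusted p = 0.011). Neither pair of groups overlapped.

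Enolase makes phosphoenolpyruvate, the substrate of pyruvate kinase. Eno3, the muscle enolase, was at 404, 447 and 407 CPM in GFP+ myoblasts and at 54, 70.3 and 33.9 in GFP+ MPCs, 0.127 times the level (-2.98 ± 0.22, adjusted p = 3.2e-07). All GFP+ MPC libraries lay below all GFP+ myoblast libraries. In bulk myoblasts it was at 910, 772 and 946 CPM, in differentiated myoblasts at 1791, 1823 and 1553 and in bulk MPCs at 2377, 1918 and 2246. Eno3 was thus higher in bulk MPCs than in bulk myoblasts (1.36 ± 0.20, adjusted p = 9.62e-05) but lower in GFP+ MPCs than in GFP+ myoblasts. Among the 40 genes, Eno3 had the interaction largest in size (-4.34 ± 0.30, adjusted p = 1.59e-06). As a share of the summed TPM of Eno1, Eno2 and Eno3, it made up 5.58% ± 2.6 (SD, n = 3) in GFP+ MPCs, 27.1% ± 0.92 in GFP+ myoblasts, 42.4% ± 0.67 in bulk myoblasts, 57.8% ± 4.5 in bulk MPCs and 65% ± 2.3 in differentiated myoblasts. The summed muscle differentiation level was 1485 to 2893 CPM in GFP+ MPCs and 744 to 1147 in GFP+ myoblasts. Of the 16 genes in that sum, 11 were higher and 1 was lower in GFP+ MPCs. Their part in the fall of Eno3 was not tested. Eno1, the form of most proliferating tissues, was at 1657, 1674 and 1723 CPM in GFP+ myoblasts and 1761, 1112 and 1168 in GFP+ MPCs, and the groups overlapped (-0.31 ± 0.15, adjusted p = 0.106). On differentiation Eno1 fell by 0.64 ± 0.15 on the log2 scale (adjusted p = 0.00328), a call lost with length-scaled counts (adjusted p = 0.0969). Of its 31-base words, 75.6% also occur in the copy Eno1b, whose TPM was at most 0.187% of that of Eno1. Eno2, the neuronal enolase, stayed between 1.72 and 7.62 CPM in the replicated libraries and was not called in any comparison.

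**Figure D2:**
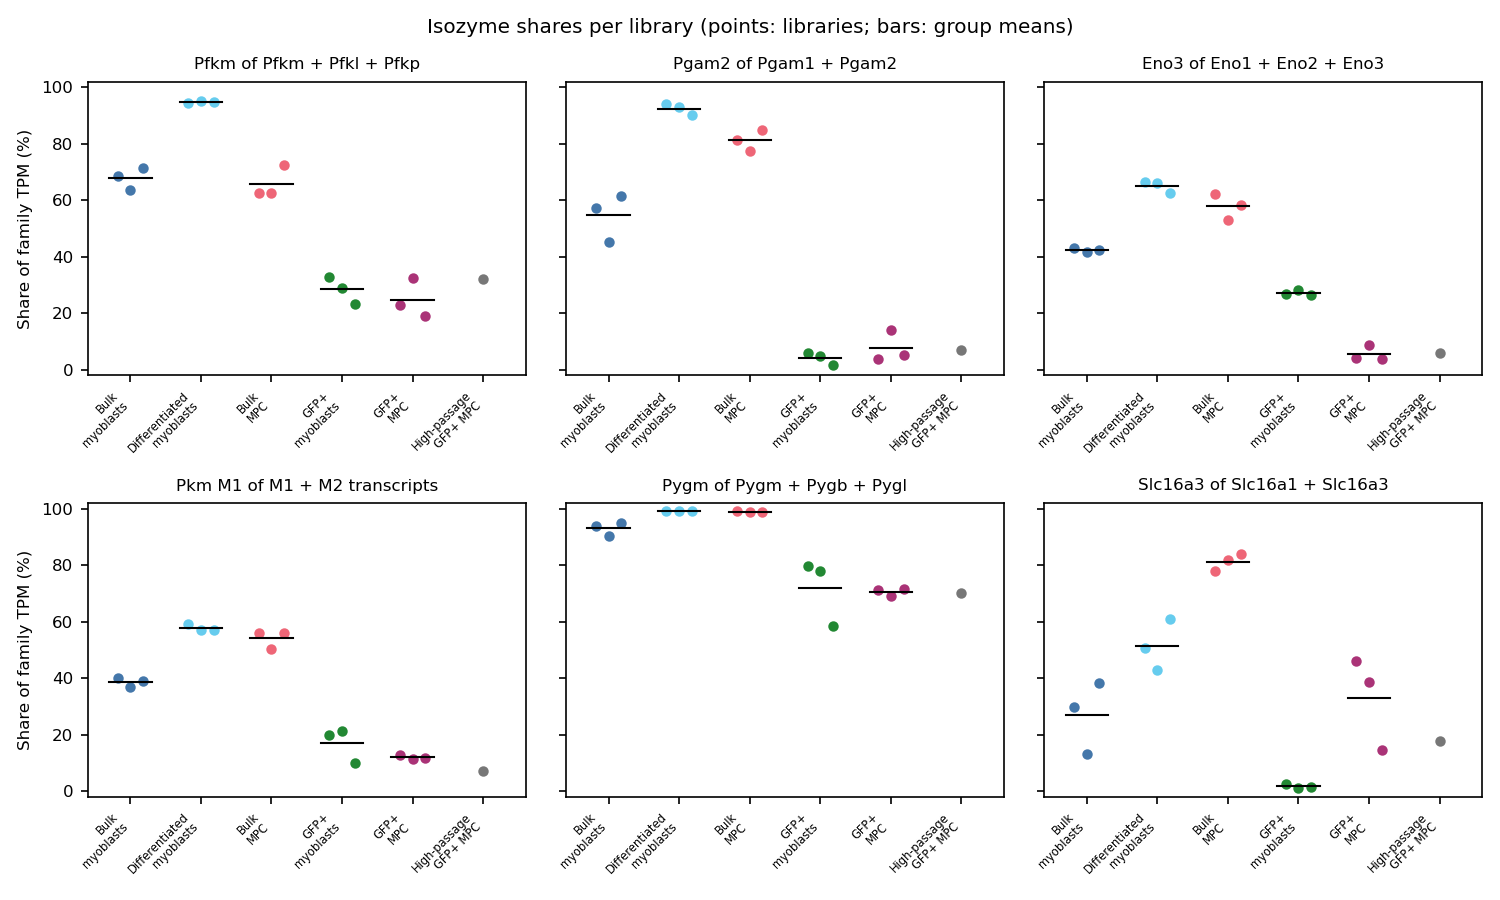
Share of 6 isozymes or transcripts in the summed TPM of their family (y axis, percent) in each library (points) by group (x axis), with group means as bars. Pfkm, Pgam2, Eno3 and Pkm M1 make up more in differentiated myoblasts than in bulk myoblasts and least in the sorted cells, and Slc16a3 makes up most in bulk MPCs.

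Phosphoglycerate mutase is the step before enolase. The level of its muscle form also differed between unsorted and sorted cells, but unlike for Eno3 the interaction was not called. The muscle form Pgam2 was at 190, 122 and 216 CPM in bulk myoblasts, 514, 453 and 352 in differentiated myoblasts and 635, 571 and 642 in bulk MPCs. In GFP+ myoblasts it was at 12.3, 10.3 and 4.15 CPM and in GFP+ MPCs at 9.13, 27.1 and 8.48. The sorted groups overlapped and were not called (0.75 ± 0.44, adjusted p = 0.173), and both lay far below every unsorted library. GFP+ MPCs were at 0.0236 times bulk MPCs (-5.41 ± 0.50, adjusted p = 6.7e-07). The rise of Pgam2 on differentiation (1.39 ± 0.42, adjusted p = 0.0127) was lost without bulk myoblast replicate 2 (adjusted p = 0.0584). Pgam1, the ubiquitous form, was at 333, 334 and 309 CPM in bulk myoblasts and fell to 79.2, 82.1 and 90.3 on differentiation (-1.89 ± 0.15, adjusted p = 9.71e-07). In bulk MPCs it stood at 344, 389 and 266 CPM, overlapping the bulk myoblasts (0.07 ± 0.14, adjusted p = 0.694). Each bulk MPC library had more Pgam2 than each differentiated one (0.47 on the log2 scale), a difference not called in the fit of all groups but called when only these 2 groups were fitted (0.41, adjusted p = 0.0451). Pgam2 made up 92.3% ± 1.9 (SD, n = 3) of the summed TPM in differentiated myoblasts, 81.2% ± 3.6 in bulk MPCs and 7.63% ± 5.5 in GFP+ MPCs.

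Phosphofructokinase is the main controlled step of glycolysis. The muscle form Pfkm was at 345, 218 and 386 CPM in bulk myoblasts, 1226, 1268 and 1011 in differentiated myoblasts and 1352, 1065 and 1403 in bulk MPCs, but at 43.9, 41.7 and 42 in GFP+ myoblasts and 79.8, 75.1 and 34.1 in GFP+ MPCs. Pfkp, the platelet form, took another course. It was at 50.6, 41.3 and 49.1 CPM in bulk myoblasts and fell to 23.4, 22.7 and 20.9 on differentiation (-1.01 ± 0.18, adjusted p = 0.000437). In bulk MPCs it reached 694, 493 and 402 CPM, 11.6 times bulk myoblasts (3.53 ± 0.19, adjusted p = 7.74e-08). In sorted cells it rose from 25, 27.3 and 27.9 CPM in myoblasts to 90.5, 62.1 and 64.6 in MPCs (1.45 ± 0.18, adjusted p = 2.96e-05). In neither comparison did the groups overlap, and the rise was larger in unsorted cells (interaction -2.08 ± 0.25, adjusted p = 7.2e-05). The liver form Pfkl followed Pfkp in direction in unsorted cells, with -1.14 ± 0.23 on differentiation and 1.19 ± 0.23 in bulk MPCs against bulk myoblasts. In sorted cells Pfkl was not called (0.55 ± 0.23, adjusted p = 0.064). Pfkm made up 94.7% ± 0.48 (SD, n = 3) of the family's TPM in differentiated myoblasts, 67.8% ± 4 in bulk myoblasts and 65.8% ± 5.6 in bulk MPCs.

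The 4 Pfkfb genes encode bifunctional enzymes that make and remove fructose-2,6-bisphosphate, an activator of phosphofructokinase. Pfkfb3, the form with the most kinase relative to phosphatase activity, was at 9.61, 9.96 and 8.2 CPM in bulk myoblasts and 100, 120 and 93.9 in bulk MPCs (3.54 ± 0.25, adjusted p = 3.38e-07). It rose also in sorted cells, from 9.98, 12.1 and 15.9 CPM to 33.1, 51.7 and 27.9 (1.58 ± 0.23, adjusted p = 0.000112), with no overlap. Differentiated myoblasts were at 8.45, 5.73 and 6.58 CPM and were not called against bulk myoblasts (-0.35 ± 0.24, adjusted p = 0.239). Pfkfb2 stayed between 9.53 and 14.8 CPM in the 15 libraries and was not called in any comparison. Pfkfb4 was at 5.91 to 15.1 CPM and was called in no comparison of the fit of all groups, but it was called higher in bulk MPCs than in bulk myoblasts with RLE factors (0.73, adjusted p = 0.04), DESeq2 (0.73, adjusted p = 0.0265) and only these groups fitted (0.70, adjusted p = 0.0397). Pfkfb1 was at 0.418 to 3.29 CPM. Of the 31-base words of Pfkfb2, 43.1% occur in other genes, so its reads are less certain.

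**Figure D3:**
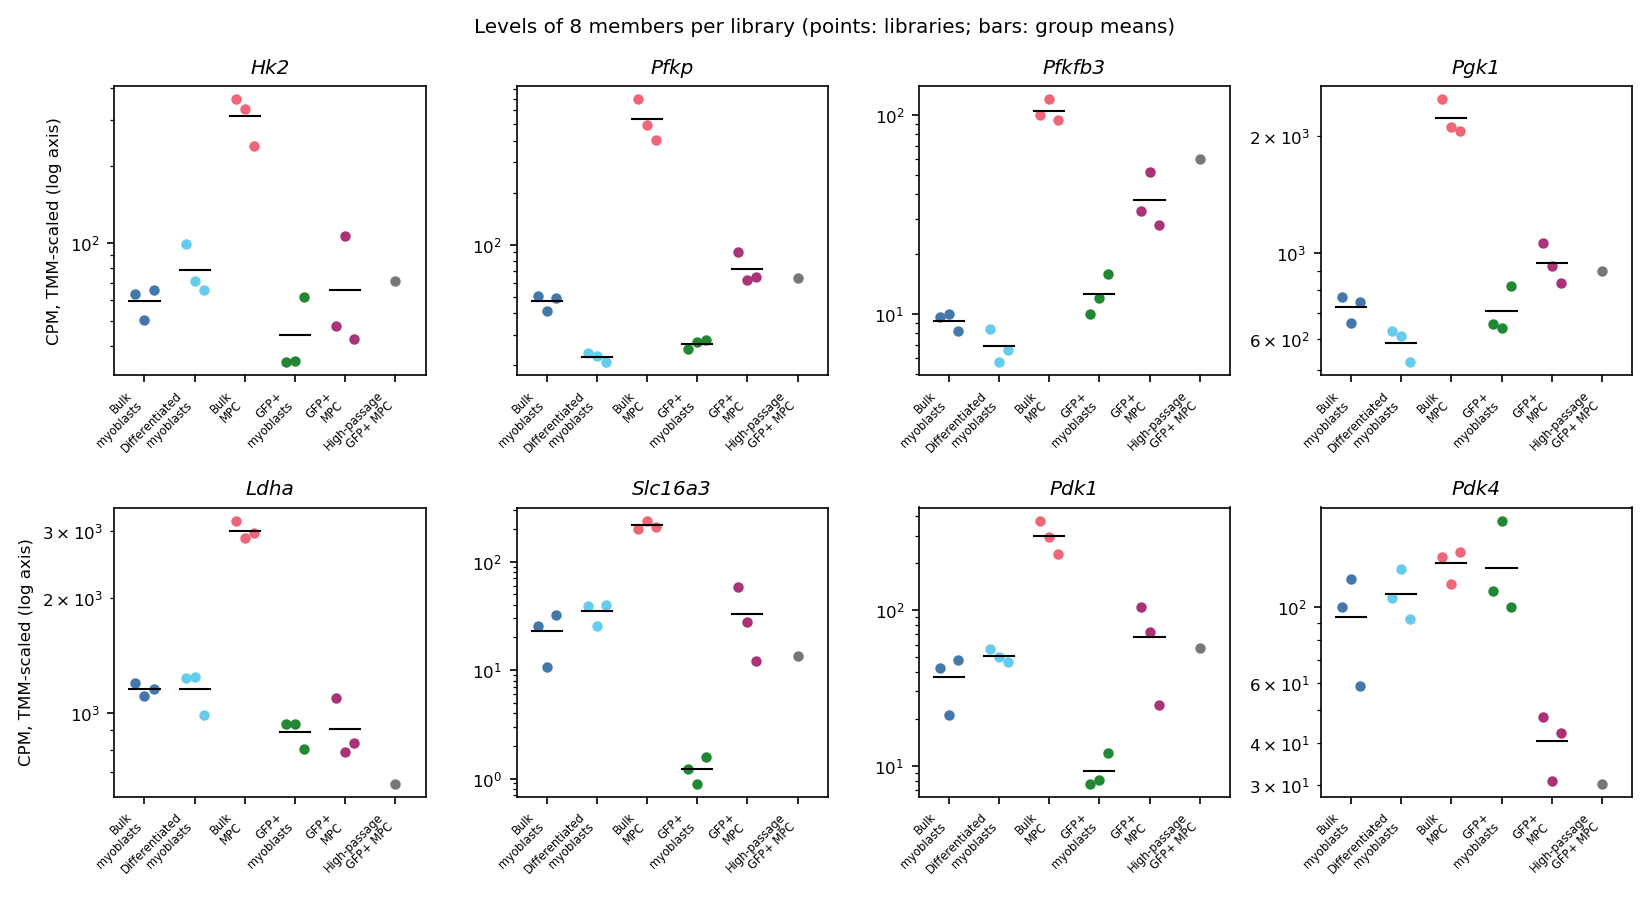
Level of 8 genes (CPM after TMM scaling, log axis) in each library (points) by group (x axis), with group means as bars. All genes shown except Pdk4 are highest in the 3 bulk MPC libraries, and Pdk4 is lower in the 3 GFP+ MPC libraries than in every other replicated library.

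Glucose enters through the Slc2a (GLUT) transporters. Slc2a4, the insulin-responsive carrier of muscle and fat, was at 19, 10.5 and 29 CPM in bulk myoblasts, 118, 100 and 102 in differentiated myoblasts and 72.5, 53.8 and 97 in bulk MPCs. In the sorted cells it was at 2.62, 1.87 and 0.906 CPM in myoblasts and 6.75, 17.5 and 4.58 in MPCs, with no overlap (2.39 ± 0.53, adjusted p = 0.00226). Slc2a3, the high-affinity carrier best known from neurons, was scarce in myoblasts and higher in MPCs. It was at 1.31, 1.13 and 0.763 CPM in GFP+ myoblasts and 27.7, 23.8 and 5.63 in GFP+ MPCs (4.15 ± 0.73, adjusted p = 0.000451). GFP+ MPC replicate 3 was well below the other replicates but above all GFP+ myoblasts. The bulk levels were 1.36, 0.918 and 2.07 CPM in myoblasts and 8.82, 29.9 and 4.66 in MPCs (3.33 ± 0.70, adjusted p = 0.00122), the highest value being in replicate 2. Slc2a1, the widely expressed basal carrier, was at 157, 163 and 92.5 CPM in bulk MPCs against 44.3, 44.1 and 49.3 in bulk myoblasts (1.62 ± 0.27, adjusted p = 0.000221). In sorted cells its groups overlapped (0.20 ± 0.27, adjusted p = 0.558). The falls of Slc2a1 (-0.76 ± 0.27, adjusted p = 0.0298) and Slc2a3 (-2.60 ± 0.93, adjusted p = 0.0295) on differentiation were weak. That of Slc2a1 was lost without any bulk myoblast replicate or differentiated replicate 2 or 3 (adjusted p 0.0538 to 0.0918), and that of Slc2a3 without bulk myoblast replicate 3 or differentiated replicate 1 or 2 (adjusted p 0.0823 to 0.0957).

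Hexokinase traps glucose as glucose-6-phosphate. Hk2, the inducible form of muscle, was at 63.6, 50.3 and 65.9 CPM in bulk myoblasts, 99, 71.3 and 66.1 in differentiated myoblasts and 363, 332 and 239 in bulk MPCs, 5.33 times bulk myoblasts (2.42 ± 0.35, adjusted p = 6.4e-05). In sorted cells it was at 34.6, 35 and 62 CPM in myoblasts and 47.6, 107 and 42.4 in MPCs, with overlap (0.59 ± 0.33, adjusted p = 0.158). The difference between the unsorted and sorted comparisons was -1.82 ± 0.47 (adjusted p = 0.00865). On differentiation Hk2 was not called, but it was when only those groups were fitted (0.47, adjusted p = 0.0414). Hk1, the housekeeping form, ranged from 122 to 317 CPM and was called lower in GFP+ MPCs than in bulk MPCs (-0.54 ± 0.21, adjusted p = 0.038). Bulk MPCs against bulk myoblasts were not called (0.47 ± 0.21), but Hk1 was called higher there with the replicate block (0.46, adjusted p = 0.0415), with DESeq2 (0.51, adjusted p = 0.0416) and when only these groups were fitted (0.48, adjusted p = 0.0147). The call against bulk MPCs was lost without bulk MPC replicate 1 or 2 or GFP+ MPC replicate 2 or 3 (adjusted p 0.0583 to 0.152). The value of Hk1 was -0.86 without GFP+ MPC replicate 1 and -0.31 without replicate 2. It was also lost with library size alone (-0.06, adjusted p = 0.815).

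Gpi1 acts before phosphofructokinase, while the aldolases and Tpi1 stand between phosphofructokinase and the pay-off steps. Aldoa, the muscle aldolase, was among the most abundant of the 40 genes, with a mean of 7120 TPM in bulk MPCs. It was at 2001, 1626 and 2263 CPM in bulk myoblasts, 5278, 5566 and 4272 in differentiated myoblasts and 8064, 7008 and 8310 in bulk MPCs. GFP+ myoblasts were at 924, 945 and 942 CPM and GFP+ MPCs at 1495, 1194 and 1066, a difference of 0.43 ± 0.16 (adjusted p = 0.0417). The sorted groups did not overlap, but the call was lost without GFP+ MPC replicate 1 or 2 or any GFP+ myoblast replicate (adjusted p 0.0604 to 0.182), and the value fell to 0.28 without GFP+ MPC replicate 1. With the replicate number as a block its adjusted p was 0.0585. Aldoc, the brain aldolase, was scarce in myoblasts at 0.713, 0.29 and 0.907 CPM and reached 16.3, 15.2 and 12.9 in bulk MPCs (4.54 ± 0.45, adjusted p = 3.28e-06). Its difference between sorted MPCs and myoblasts (1.26 ± 0.46, adjusted p = 0.0375) was lost without GFP+ MPC replicate 1 or 2 or GFP+ myoblast replicate 1 or 2 (adjusted p 0.0807 to 0.198), was 0.80 without GFP+ MPC replicate 2, and had an adjusted p of 0.0605 with the block. Tpi1 (triose phosphate isomerase) was at 108, 63.3 and 90.8 CPM in bulk myoblasts and 634, 546 and 483 in bulk MPCs (2.71 ± 0.31, adjusted p = 1.15e-05). In sorted cells Tpi1 overlapped (0.39 ± 0.30, adjusted p = 0.305). Gpi1, which interconverts glucose-6-phosphate and fructose-6-phosphate, was higher in bulk MPCs (1.30 ± 0.17) and in GFP+ MPCs (0.65 ± 0.17, adjusted p = 0.00547), the latter at 0.40 without GFP+ MPC replicate 1 and not called when only these groups were fitted (adjusted p = 0.0653).

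Gapdh and Pgk1 carry out the first steps that yield NADH and ATP. Gapdh was at 11220, 9760 and 9102 CPM in bulk MPCs against 4147, 3940 and 4516 in bulk myoblasts (1.30 ± 0.18, adjusted p = 4.31e-05). GFP+ myoblasts were at 3701, 3826 and 5687 CPM and GFP+ MPCs at 4183, 4668 and 3803, with overlap (-0.06 ± 0.17, adjusted p = 0.81). Gapdh, often used as a constant reference, thus differed by more than the replicate spread between the unsorted cultures. Most 31-base words of Gapdh (86.4%) recur in annotated copies, the closest of which, Gm10358, had at most 0.132% of its TPM. Pgk1, phosphoglycerate kinase, was at 770, 658 and 745 CPM in bulk myoblasts, 627, 610 and 523 in differentiated myoblasts and 2489, 2114 and 2056 in bulk MPCs (1.66 ± 0.14 against bulk myoblasts, adjusted p = 1.04e-06). In sorted cells Pgk1 went from 655, 640 and 823 CPM to 1058, 926 and 837, just without overlap (0.42 ± 0.14, adjusted p = 0.0204). That call was lost without GFP+ MPC replicate 1 or GFP+ myoblast replicate 1 or 2 (adjusted p 0.0833 to 0.091).

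Lactate dehydrogenase regenerates NAD+ by reducing pyruvate, and monocarboxylate transporters carry lactate across the membrane. Ldha, the main muscle form, was at 1194, 1106 and 1153 CPM in bulk myoblasts, 1230, 1238 and 990 in differentiated myoblasts and 3186, 2866 and 2954 in bulk MPCs, 2.69 times bulk myoblasts (1.43 ± 0.13, adjusted p = 2.29e-06). In sorted cells it was at 932, 932 and 804 CPM in myoblasts and 1093, 791 and 833 in MPCs, with overlap (0.04 ± 0.13, adjusted p = 0.836). Ldhb, the heart form, was at 7.84 to 35.1 CPM in the 15 libraries and was not called in any comparison. Slc16a3, the lactate exporter of glycolytic fibres, was at 25.6, 10.8 and 32 CPM in bulk myoblasts, 38.9, 25.6 and 39.7 in differentiated myoblasts and 199, 239 and 211 in bulk MPCs (3.28 ± 0.49 against bulk myoblasts, adjusted p = 8.97e-05). Between the sorted groups it rose from 1.22, 0.898 and 1.57 CPM to 58.8, 27.6 and 12, a 27.0-fold difference (4.76 ± 0.58, adjusted p = 2.44e-05) without overlap. GFP+ MPCs spread widely here, replicate 3 being lowest. Slc16a1, the carrier found in most tissues, was not called between MPCs and myoblasts, sorted (-0.27 ± 0.20, adjusted p = 0.282) or unsorted (-0.24 ± 0.20, adjusted p = 0.332), though the unsorted difference was called with library size alone (-0.60, adjusted p = 0.0164). Slc16a3 made up 81.2% ± 3.2 (SD, n = 3) of the summed TPM of Slc16a1 and Slc16a3 in bulk MPCs, 27.1% ± 13 in bulk myoblasts, 33.1% ± 17 in GFP+ MPCs and 1.71% ± 0.67 in GFP+ myoblasts. Slc16a6, a relative that carries ketone bodies and taurine, was at 5.57, 3.82 and 3.95 CPM in bulk myoblasts and 190, 146 and 141 in bulk MPCs, 36.6-fold higher (5.20 ± 0.20, adjusted p = 3.42e-09). In sorted cells Slc16a6 rose from 1.86, 2.46 and 1.72 CPM to 26.4, 29.6 and 33.2 (3.89 ± 0.19, adjusted p = 1.85e-08), with little spread in either group. Of its 31-base words 24.5% are shared with Amz2, whose TPM ranged from 53.2 to 2840% of that of Slc16a6. Part of the reads of Slc16a6 could therefore be split differently.

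Pyruvate dehydrogenase kinases switch off pyruvate dehydrogenase, which acts on pyruvate in the mitochondria. Pdk1 was at 42.7, 21.2 and 47.5 CPM in bulk myoblasts, 55.9, 50 and 46.1 in differentiated myoblasts and 375, 294 and 230 in bulk MPCs (3.05 ± 0.44 against bulk myoblasts, adjusted p = 6.43e-05). Sorted cells showed a rise from 7.68, 8.16 and 12 CPM to 104, 72 and 24.6 (2.87 ± 0.45, adjusted p = 0.000169), again without overlap and with GFP+ MPC replicate 3 lowest. The size of this rise did not differ detectably between unsorted and sorted cells (interaction -0.18 ± 0.59, adjusted p = 0.838). Pdk2 followed differentiation instead, at 31.7, 23.6 and 39.5 CPM in bulk myoblasts, 159, 175 and 132 in differentiated myoblasts and 111, 92.6 and 123 in bulk MPCs, with overlap between the sorted groups. Pdk4, the kinase induced in fasting, went the other way from Pdk1 in sorted cells. It was at 111, 179 and 100 CPM in GFP+ myoblasts and 47.5, 31 and 42.8 in GFP+ MPCs, 0.313 times as high (-1.68 ± 0.27, adjusted p = 0.000242). The unsorted comparison was not called (0.57 ± 0.27, adjusted p = 0.0803), and the interaction was -2.25 ± 0.38 (adjusted p = 0.000611). Pdk3 was lower in GFP+ MPCs by 0.52 on the log2 scale (-0.52 ± 0.17, adjusted p = 0.0209), a call lost without GFP+ MPC replicate 1 or GFP+ myoblast replicate 2 (adjusted p 0.0841 and 0.0666).

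Glycogen is built by Gys1 and the branching enzyme Gbe1 and broken down by phosphorylases that phosphorylase kinase activates. Pygm, the muscle phosphorylase, was at 404, 295 and 481 CPM in bulk myoblasts, 1751, 1794 and 1328 in differentiated myoblasts and 2367, 1822 and 2321 in bulk MPCs. Among sorted cells, Pygm was at 128, 117 and 56 CPM in myoblasts and 73.5, 69.2 and 53.5 in MPCs, with overlap (-0.60 ± 0.27, adjusted p = 0.0781), a difference that DESeq2 called (-0.63, adjusted p = 0.0466). Gys1, the muscle synthase, followed the same order, at 228, 183 and 300 CPM in bulk myoblasts, 589, 624 and 557 in differentiated myoblasts, 892, 797 and 820 in bulk MPCs, and 50.4 to 100 in all sorted libraries of the replicated groups. The kinase subunits Phka1 and Phkg1 rose on differentiation (1.08 ± 0.16 and 2.96 ± 0.36) and in bulk MPCs against bulk myoblasts (1.18 ± 0.16 and 3.24 ± 0.36). Part of Phkg1 is uncertain, since 25.6% of its 31-base words recur in other genes. The closest of these, Sumf2, had a TPM of 88 to 16200% of that of Phkg1. Pygb, the brain phosphorylase, was lower where Pygm was higher in the unsorted comparisons with bulk myoblasts, but not between the sorted groups. It was at 36.9, 39.2 and 28.2 CPM in bulk myoblasts, 18, 18.6 and 17 in differentiated myoblasts and 7.11, 13.6 and 9.56 in bulk MPCs (-1.75 ± 0.21 against bulk myoblasts, adjusted p = 1.92e-05). Among sorted cells, Pygb was at 53.2, 49.8 and 63.1 CPM in myoblasts and 29.9, 43.3 and 34.2 in MPCs (-0.62 ± 0.20, adjusted p = 0.0232), a call lost without GFP+ MPC replicate 1 or 3 or GFP+ myoblast replicate 3 (adjusted p 0.0626 to 0.0879) and with length-scaled counts (adjusted p = 0.174). Pygl, the liver phosphorylase, was below 2 CPM in all myoblast libraries and at 9.85, 12.7 and 11 in bulk MPCs (3.48 ± 0.68 against bulk myoblasts, adjusted p = 0.000706). In sorted cells it went from 0.224, 0.117 and 0.191 CPM to 6.61, 3.13 and 0.683 (4.25 ± 0.80, adjusted p = 0.000754), without overlap. Gbe1 was higher in bulk MPCs (0.81 ± 0.22, adjusted p = 0.0057), at 0.53 without bulk MPC replicate 1, and that call was lost with library size alone (adjusted p = 0.0764).

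Set side by side, MPCs and myoblasts differed by other amounts in unsorted than in sorted cells. Slc16a3, Slc2a3, Pygl, Slc16a6, Pdk1 and Slc2a4 were higher by 1.98 or more on the log2 scale in both comparisons. For Slc16a3, Slc2a3, Pygl, Pdk1 and Slc2a4 the difference between the comparisons was not called (adjusted p 0.127 to 0.838). Its 95% interval was not computed, so these values do not show that the sizes were equal. Among the genes called in unsorted cells, Hk2, Slc2a1, Pfkm, Tpi1, Gapdh, Ldha, Gys1, Pygm, Pdk2, Phka1 and Phkg1 were not called in sorted cells, and for each of these 11 the interaction itself was called (-1.34 to -3.12). Pfkl, Pgam2 and Gbe1 were likewise called in unsorted but not in sorted cells, but for them the interaction was not called. All these sets were named after their values were seen.

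**Figure D4:**
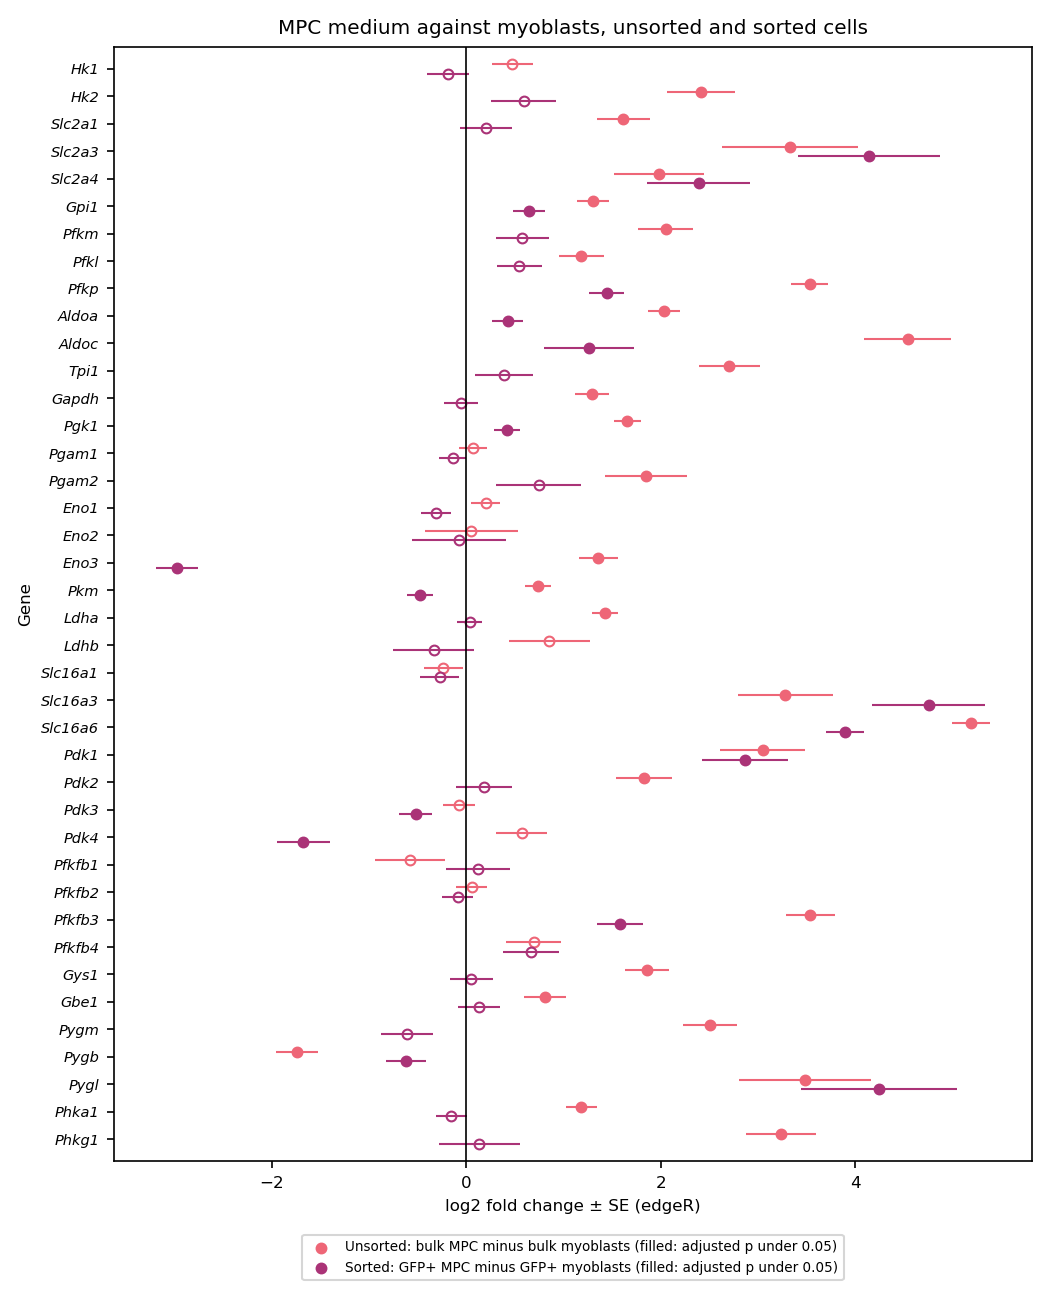
Log2 fold change ± SE (x axis) of each of the 40 genes (y axis) for MPCs against myoblasts in unsorted and in sorted cells; filled points had an adjusted p under 0.05. The unsorted points lie mostly to the right of the sorted ones, with Slc2a3, Slc16a3 and Pygl among the exceptions, and Eno3 stands on opposite sides of 0.

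Promoter sequences (250 bases before to 50 after the gene start, RefSeq, GRCm38.p6) were matched for 37 of the 40 genes, all but Slc2a3, Slc2a4 and Slc16a6. Both strands were searched for the E-box form CAGCTG, which myogenic factors such as MyoD bind, and for another such form, CAGGTG. They were also searched for ACGTG, the core that hypoxia-inducible factors bind, which is also part of another E-box form. The last motif was TGACG, the core of the site bound by CREB, which can overlap the hypoxia core. ACGTG occurred in 17 of the 37 promoters (45.9%), against 25.2% of promoters of the genes tested and 19.7% of all 27025 promoters. CAGCTG occurred in 8 (21.6%, against 15.7% and 16.1%), CAGGTG in 5 (13.5%, against 17.4% and 20%) and TGACG in 10 (27%, against 30.7% and 21%). The examples below all carry a motif shown, but not all genes of their kind do. Pygm had CAGCTG and ACGTG, while Pfkm had ACGTG and neither CAGCTG nor CAGGTG. Of genes higher in MPCs in both comparisons, Aldoc, Pgk1 and Pygl also had ACGTG, but Pdk1, Pfkp, Gpi1 and Aldoa did not. Pygb and Pdk3, lower in GFP+ MPCs than in GFP+ myoblasts, had ACGTG. Below are 2 promoters of muscle isozymes, with both E-box forms in capitals. They are followed by 2 of genes higher in MPCs than in myoblasts, unsorted and sorted, with the hypoxia core on either strand in capitals.
Pgam2 (chr11:5803747-5804046, minus strand): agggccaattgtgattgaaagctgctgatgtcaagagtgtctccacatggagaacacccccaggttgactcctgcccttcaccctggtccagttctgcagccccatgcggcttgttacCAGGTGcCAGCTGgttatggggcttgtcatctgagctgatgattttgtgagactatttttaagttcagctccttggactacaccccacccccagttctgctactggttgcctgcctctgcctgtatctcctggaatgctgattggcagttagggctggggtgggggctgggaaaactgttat
Eno3 (chr11:70656926-70657225, plus strand): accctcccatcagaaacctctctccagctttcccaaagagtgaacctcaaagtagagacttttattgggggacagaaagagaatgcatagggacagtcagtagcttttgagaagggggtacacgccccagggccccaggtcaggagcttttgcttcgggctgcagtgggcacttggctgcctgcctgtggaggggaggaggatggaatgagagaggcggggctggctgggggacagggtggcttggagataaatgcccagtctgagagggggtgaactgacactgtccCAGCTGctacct
Slc16a3 (chr11:120948817-120949116, plus strand): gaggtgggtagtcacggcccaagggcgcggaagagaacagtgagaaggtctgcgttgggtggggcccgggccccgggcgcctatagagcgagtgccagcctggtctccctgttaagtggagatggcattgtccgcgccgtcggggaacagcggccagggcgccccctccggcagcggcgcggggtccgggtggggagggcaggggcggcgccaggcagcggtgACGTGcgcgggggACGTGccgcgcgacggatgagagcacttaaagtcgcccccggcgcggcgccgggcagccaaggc
Pfkfb3 (chr2:11553880-11554179, minus strand): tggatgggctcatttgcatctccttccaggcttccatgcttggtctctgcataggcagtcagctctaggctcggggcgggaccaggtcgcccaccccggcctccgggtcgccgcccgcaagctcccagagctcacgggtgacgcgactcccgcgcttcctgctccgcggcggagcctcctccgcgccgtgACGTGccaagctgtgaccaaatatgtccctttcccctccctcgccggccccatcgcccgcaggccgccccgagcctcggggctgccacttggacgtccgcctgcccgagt
These are matches of letters in a window, not sites shown to be bound.

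The single library of high-passage GFP+ MPCs has no replicate and was not tested. Of the 40 genes, 20 lay within the range of the 3 GFP+ MPC libraries, 18 below and 2 above. The shares over all genes were not computed, so these counts are not a result about the 40 genes. The 2 above were Slc16a6 (103 CPM, against 26.4 to 33.2) and Pfkfb3 (60.1 CPM, against 27.9 to 51.7). Ldhb was at 0.697 CPM, against 7.84 to 22.8. The share of Pkm M1 was 7.22%, below all 3 GFP+ MPC libraries, and Eno3 was at 54.2 CPM, within their range and below all GFP+ myoblasts.

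Genes outside the 40 came from 8 lists of 109 genes around the same pathways. Of 14 hypoxia-responsive genes tested outside glycolysis, all 14 were higher in bulk MPCs than in bulk myoblasts (median 2.21, where 28.4% of all genes were higher). In GFP+ MPCs 9 were higher and 1 lower than in GFP+ myoblasts (median 1.33, against 26% and 22.7% of all genes). On differentiation 4 were higher and 2 lower (median -0.23), near the 25.6% and 28.6% of all genes. Their summed level was 971, 916 and 482 CPM in GFP+ MPCs, replicate 3 being lowest, against 415 to 472 in GFP+ myoblasts. It was 1887 to 2583 CPM in bulk MPCs and 503 to 642 in bulk myoblasts. All 11 genes of the pyruvate carrier and pyruvate dehydrogenase list were higher both in bulk MPCs and in differentiated myoblasts than in bulk myoblasts, 2 comparisons that share their controls and in which 28.4% and 25.6% of all genes were higher. Of the 7 pentose phosphate genes none was higher and 4 were lower in each of these comparisons, where 30.1% and 28.6% of all genes were lower. G6pdx, which opens that pathway, was at 68.9, 78.4 and 62.9 CPM in bulk myoblasts and 5.06, 9.28 and 6.85 in differentiated myoblasts (-3.25 ± 0.38, adjusted p = 1.6e-05). Mlxipl (ChREBP), a transcription factor that responds to glucose metabolites, was at 0, 0.156 and 0.0477 CPM in GFP+ myoblasts and 12, 14.2 and 6.35 in GFP+ MPCs, and its adjusted p was 6.5e-07. In unsorted cells Mlxipl was at 0.17, 0.0967 and 0.326 CPM in myoblasts and 11.8, 14.2 and 13.8 in MPCs (6.03 ± 0.50, adjusted p = 1.03e-06). Gpd1, which makes glycerol-3-phosphate, was at 241, 197 and 296 CPM in bulk MPCs, 4.65, 2.71 and 5.4 in bulk myoblasts and 4.77, 4.02 and 1.04 in GFP+ MPCs. Car9, the hypoxia-induced carbonic anhydrase, was at 48.2, 6.51 and 1.49 CPM in GFP+ MPCs and 0.078 to 0.143 in GFP+ myoblasts, so that the 3 replicates differed widely among themselves. Of 4 gluconeogenesis genes tested, Fbp2, the muscle fructose bisphosphatase, was at 21.2, 19.2 and 46.4 CPM in bulk MPCs and below 0.5 in bulk myoblasts (6.62 ± 0.73, adjusted p = 1.78e-05), and Pck2, which makes phosphoenolpyruvate in mitochondria, was lower (-1.75, adjusted p = 0.000216).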

How the data were processed

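Poly(A) RNA from 16 cultures was sequenced from stranded libraries with single-end reads, per the labels' protocols. The authors trimmed reads with fastp 0.20.0 and quantified transcripts with kallisto 0.46.1 on GRCm39, tools and build named per the submitters' processing notes, and deposited estimated counts, TPM values and effective lengths (another unit, in bases) per transcript, per the file headers. Of 121798 transcripts, 120739 matched GENCODE M21 by identifier, and the unmatched ones held at most 1.054% of a library's estimated counts. GENCODE M21 is on GRCm38, so it gave names, Pkm exons and shared words, and the coordinates printed are GRCm38. Transcripts are assigned reads by probability, so isozymes and copies that share sequence are estimates.

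Estimated counts were summed per gene and rounded. The symbol Aldoa has 2 gene identifiers in M21, and the one with the higher level was used (the other stayed at or below 12.5 TPM). edgeR 4.0.16 (R 4.3.3) fitted the 15 replicated libraries in 1 quasi-likelihood model with 5 groups, TMM factors of 0.772 to 1.13, filterByExpr (minimum count 10, minimum total 15), 10 residual degrees of freedom and 7 contrasts, each adjusted over 15533 genes. The high-passage library was left out of the fit. The unit was as planned. Isozyme shares are percent of a family's deposited TPM, tested by exact permutation, two-sided, over 11 shares. The fit and the permutation test were tested on simulated data.

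The 40 genes may all be named; of the other lists, up to 4 genes per comparison with the largest absolute change past the threshold, genes of lists with 5 or fewer tested, and Pax7, Myod1, Myog, Myh3, Ckm and Mki67 among markers. Members and lists were chosen with earlier results of these data known. Library totals set the precision for scarce genes, and replicates differed by far more than counting noise (chi-square per degree of freedom 10.6 to 64.1).

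Groups share replicate numbers, and library names carry a number that follows them, whose meaning the labels do not give. The 30 same-number correlations of deviations from group means ran from -0.166 to 0.209, with 8 over 0.1. Every pair exceeded 0.1 for bulk myoblasts against bulk MPCs alone (0.131 to 0.163), where the block moved the counts of called genes from 28 to 29 higher, adding Hk1, and left 1 lower. The alternatives were DESeq2 1.42.0, other scalings, no filter, length-scaled counts, the compared groups alone, the block, and each replicate left out.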

Additional observations from a re-analysis of the deposited data

Results flagged for a closer look

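The change between MPCs and myoblasts differed between sorted and unsorted cells for 22 of the 40 genes, by the interaction term of the edgeR fit (adjusted p under 0.05 over all 15533 genes, n = 3 libraries in each of 4 groups). Over all genes tested, 16.8% were lower and 20.3% higher by the same term. With library size alone, its median over all genes moved from 0.09 to 0.46. Values are the log2 change in sorted cells minus that in unsorted cells. Among the muscle isozymes and Pkm, the values were Pfkm (-1.48), Eno3 (-4.34), Pkm (-1.21) and Aldoa (-1.61), while Pgam2 was not called. Among the glycogen genes and Pdk2, they were Gys1 (-1.81), Pygm (-3.12), Phka1 (-1.34), Phkg1 (-3.11) and Pdk2 (-1.65), while Gbe1 and Pygl were not called. The values of the other genes that differed were Hk2 (-1.82), Slc2a1 (-1.42), Gpi1 (-0.65), Pfkp (-2.08), Aldoc (-3.28), Tpi1 (-2.32), Gapdh (-1.35), Pgk1 (-1.24), Ldha (-1.39), Slc16a6 (-1.30), Pdk4 (-2.25) and Pfkfb3 (-1.96). Pygb alone differed in the positive direction (1.12), its fall being smaller in sorted cells. The call of Gpi1 (adjusted p = 0.0407) was lost when any of 8 of the 12 libraries was left out (adjusted p 0.0695 to 0.094) and with library size alone (-0.28, adjusted p = 0.337).

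Summed muscle differentiation levels were 22190 to 111200 CPM in the unsorted and 744 to 2893 CPM in the sorted libraries, and summed proliferation levels were 1358 to 3355 CPM in the sorted and 247 to 877 CPM in the unsorted libraries of these 4 groups. Their part in these differences was not tested.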

How the results depend on the processing

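Of 168 called values over the 40 genes and 7 comparisons, 143 stayed called with every single library left out, 145 under every other alternative and 139 under all refits. The genes whose calls were lost are named in the report where they are described; those not described there are Tpi1, Gapdh and Pfkfb1 on differentiation, Slc16a1 and Pdk3 between bulk MPCs and differentiated myoblasts, Gbe1, Pfkl and Pygl between GFP+ and bulk MPCs, and Gpi1, Ldha, Pygl and Phkg1 between GFP+ and bulk myoblasts, besides the 3 genes higher there. One called value changed direction: Eno1 in GFP+ MPCs against bulk MPCs went from -0.38 to 0.094 with library size alone (adjusted p = 0.623), and its call was lost without bulk MPC replicate 2 or 3 or GFP+ MPC replicate 2 or 3 (adjusted p 0.103 to 0.166). Counts of called genes stayed within 1.5 times in 203 of 213 refits. The exceptions were all small counts. With library size alone, 4 genes were lower in bulk MPCs than in bulk myoblasts and 4 were higher in GFP+ MPCs than in bulk MPCs. Fitting only the compared groups gave 2 lower in bulk MPCs against differentiated myoblasts, and length-scaled counts gave 1 higher in GFP+ myoblasts against bulk myoblasts. With single libraries left out, these counts ranged from 1 to 2 lower in bulk MPCs against bulk myoblasts, 2 to 4 higher in GFP+ against bulk MPCs, 0 to 2 higher in GFP+ against bulk myoblasts and 1 to 2 higher for the interaction. The cause was not tested. DESeq2 lost no call and added 5. The replicate block lost 7 calls and added 1 (Hk1 in bulk MPCs against bulk myoblasts, adjusted p = 0.0415), gave 10 higher and 5 lower in GFP+ MPCs against GFP+ myoblasts, and 10 of 15 libraries correlated best with their own number. The 10 isozyme shares called differed between groups under all alternatives run, including permutation within the replicate block (10). Among them, the share of Aldoa in Aldoa and Aldoc had group means that spanned only 0.115 percentage points. Genes below about 2 CPM, such as Aldoc, Pygl, Pfkfb1 and Phkg1 in some groups, rest on few counts.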
